A study of Homo sapiens with 18 samples.

Results

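Introns shorter than 150 nt made up 2124 of the 21782 introns (9.75%) in the authors' table of intron excision in HEK293 cells, a human embryonic kidney line. They were chosen by length alone and lay in 1141 of the table's 4163 genes (27.4%). Their median length was 99 nt, with quartiles of 88 and 118 nt, against a median of 1680 nt for the 19658 other introns. Of the very short introns, 2116 were 70 to 149 nt long, 4 were 30 to 69 nt and 4 were under 30 nt. A further 12 introns of exactly 150 nt fell just outside the limit. The host gene was protein coding for 2095 very short introns, a lncRNA for 17 and a pseudogene for 12.

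Introns are removed from precursor RNA by the spliceosome, which recognises the 5′ splice site, the branch point with the polypyrimidine tract after it, and the 3′ splice site. In a very short intron these signals lie close together, and the intron itself can be recognised as the unit between its splice sites (intron definition). In vertebrates, where most introns are long and the exon is usually the unit that is recognised, very short introns are a minority and include both AT-rich and GC-rich kinds.

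Cells were given 4-thiouridine (4sU) at 500 µM, a uridine analogue taken up into RNA made after its addition, and labelled RNA was biotinylated and bound to streptavidin. Labelled RNA was collected after 7.5, 15, 30, 45 and 60 min, with 3 libraries per time (A, B and C). Total RNA, without streptavidin selection, gave 3 libraries in which ribosomal RNA was avoided in 3 ways: 1 by oligo-dT selection, 1 by RNase H and 1 by Ribo-Zero. All libraries came from this 1 cell line, and the labels do not tell whether replicates were grown apart. A p-value here therefore reflects the scatter among these libraries alone, which may be technical. Of the genes this line is known to express, KRT8, KRT18, VIM and LIN28B had at least 22.7, 22.3, 228 and 21.1 TPM (transcripts scaled to a fixed sum per library) in each of the 15 labelled libraries. The neurofilament gene NEFM had a median of 0.260 TPM. The 10 markers of other cell types had a median of 0 TPM in labelled RNA, apart from the astrocyte gene GFAP with a median of 0.0800 TPM and a highest value of 1.81 TPM.

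The excised share of an intron is the fraction of its splice site reads that come from spliced RNA, from 0 for an intron still present in every transcript to 1 for an intron that has been removed from all. The deposited value is already the mean of the 3 libraries of a labelling time, kept for introns with more than 5 reads in each of them. No error over libraries and no read depth can therefore be given for an excised share, and the values are described without a test. All 2124 very short introns had a value at all 5 times.

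The sequences of some very short introns show the 2 kinds, and the range of excision, that the values describe. Of the 2124, 2051 matched an intron of the same gene and length in GENCODE 29, of which 1997 (97.4%) lay between coding exons of an annotated transcript. For 374 of these, another annotated transcript of the same gene contains the intron inside an exon, and its sequence was read from that transcript. The GC fraction of each of the 374 differed from the authors' value by at most 0.0001. Among them, 370 began with GT, 3 with GC and 1 with other bases, and 373 ended with AG. The sequences below (5′ to 3′, hg19 positions counted from 1) have their first 6 and last 3 bases, at the splice sites, in capitals. The first is the shortest of the 374 with a 5′ splice site score above 0. The next 4 are from mRNAs abundant in labelled RNA. Those of HSPA8 (29.9% GC) and EEF1A1 (41.0%) are lower in GC and those of RPS2 (70.9%) and TUBA1B (57.8%) higher.
HNRNPH1, 56 nt, chr5:179044934-179044989 (minus strand): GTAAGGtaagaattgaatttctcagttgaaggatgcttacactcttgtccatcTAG
HSPA8, 87 nt, chr11:122930737-122930823 (minus strand): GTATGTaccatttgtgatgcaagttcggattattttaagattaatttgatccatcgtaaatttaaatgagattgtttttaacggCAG
EEF1A1, 83 nt, chr6:74228572-74228654 (minus strand): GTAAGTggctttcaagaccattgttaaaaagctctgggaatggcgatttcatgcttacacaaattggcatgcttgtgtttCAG
RPS2, 79 nt, chr16:2012658-2012736 (minus strand): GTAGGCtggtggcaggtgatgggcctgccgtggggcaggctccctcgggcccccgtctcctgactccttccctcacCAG
TUBA1B, 109 nt, chr12:49523174-49523282 (minus strand): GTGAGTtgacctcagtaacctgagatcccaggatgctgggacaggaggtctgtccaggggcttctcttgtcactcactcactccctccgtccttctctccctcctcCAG
The next pair has the highest and the lowest excised share at 7.5 min of the very short introns.
KRI1, 74 nt, chr19:10672393-10672466 (minus strand): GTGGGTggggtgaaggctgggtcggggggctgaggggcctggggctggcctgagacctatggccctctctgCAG
SLC38A2, 112 nt, chr12:46756165-46756276 (minus strand): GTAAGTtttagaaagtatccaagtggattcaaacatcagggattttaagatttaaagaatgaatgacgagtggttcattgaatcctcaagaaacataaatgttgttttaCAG
The last 5 were among the 8 very short introns with the lowest excised share at 60 min.
DMKN, 118 nt, chr19:36001155-36001272 (minus strand): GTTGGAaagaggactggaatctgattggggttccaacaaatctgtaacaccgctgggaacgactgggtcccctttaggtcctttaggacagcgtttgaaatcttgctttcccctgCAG
DMKN, 126 nt, chr19:36001155-36001280 (minus strand): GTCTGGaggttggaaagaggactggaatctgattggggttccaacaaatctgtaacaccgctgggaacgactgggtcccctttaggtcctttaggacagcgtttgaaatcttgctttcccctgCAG
SARS2, 85 nt, chr19:39408649-39408733 (minus strand): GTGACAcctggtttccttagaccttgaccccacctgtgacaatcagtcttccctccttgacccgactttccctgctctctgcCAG
TMEM106C, 91 nt, chr12:48359781-48359871 (plus strand): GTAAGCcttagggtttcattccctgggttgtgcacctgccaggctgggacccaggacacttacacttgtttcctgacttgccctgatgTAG
SNHG5, 78 nt, chr6:86387594-86387671 (minus strand): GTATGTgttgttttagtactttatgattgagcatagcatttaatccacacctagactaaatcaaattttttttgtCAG
The 2 DMKN introns end at the same 3′ splice site, and the longer one starts 8 bases upstream at a second 5′ splice site.

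Very short introns were excised further than other introns in RNA labelled for 7.5 or 15 min, and this lead was nearly gone by 60 min. Their median excised share was 0.613, 0.629, 0.707, 0.810 and 0.847 at 7.5, 15, 30, 45 and 60 min, against 0.536, 0.574, 0.695, 0.806 and 0.843 for the other introns. The difference between the medians was 0.0767 at 7.5 min, 0.0556 at 15 min and 0.0120 at 30 min. At 45 and 60 min it was 0.00389 and 0.00407, and with other definitions of the comparison it took either sign there. The quartiles overlapped widely at each time: at 7.5 min they were 0.483 and 0.737 for very short introns and 0.419 and 0.654 for the others. The median gain per intron, the value at 60 min minus that at 7.5 min, was 0.214 for very short introns and 0.287 for the others.

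The ends of the distribution were also unlike at 7.5 min. An excised share of at least 0.8 at that time was found for 306 very short introns (14.4%) and 1101 other introns (5.60%). At 60 min a share below 0.5 remained for 68 very short introns (3.20%) and 574 other introns (2.92%). The authors sorted introns into 3 clusters by their time course. Of the very short introns 49.7% were in the fast cluster, 34.2% in the medium and 16.1% in the slow one, against 38.2%, 43.9% and 17.9% of the other introns. These clusters rest on the same excised shares and add no separate evidence.

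**Figure D1:**
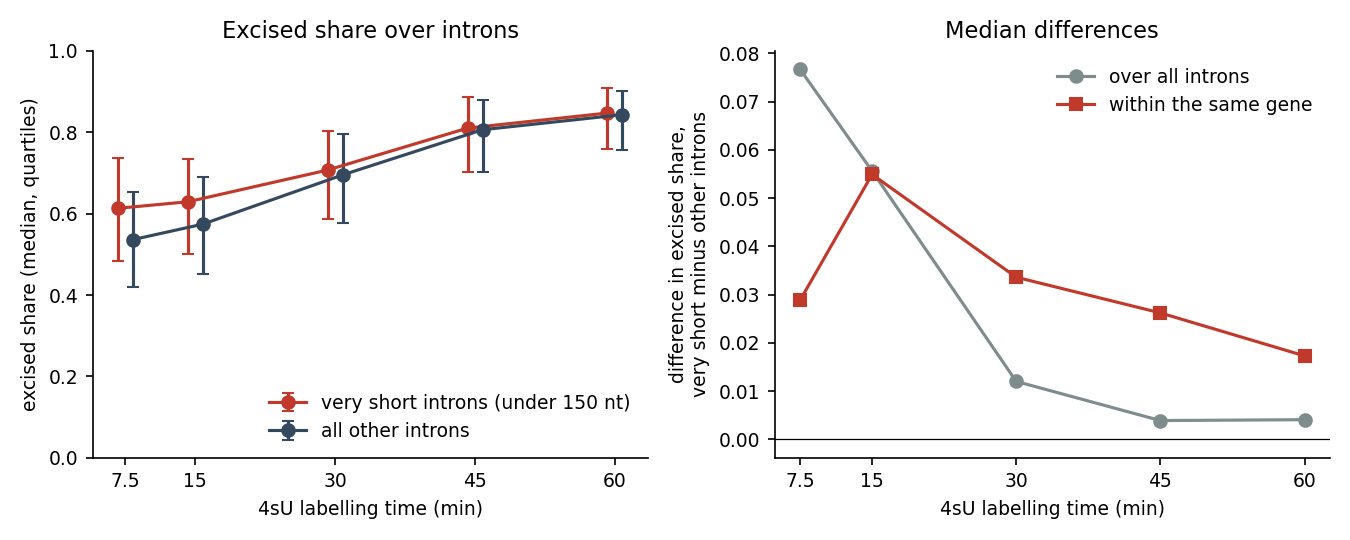
Left, median excised share (fraction, with quartiles as bars) of 2124 very short and 19658 other introns by labelling time in minutes; the medians are 0.0767 apart at 7.5 min and 0.00407 apart at 60 min. Right, very short minus other introns by labelling time, as the difference of the medians over all introns and as the median difference within 1040 genes; the within-gene difference is highest at 15 min (0.0549) and is 0.0173 at 60 min.

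Within the same gene, very short introns stayed ahead of their neighbours through the whole course. Of the 1141 host genes 1040 also had another intron in the table, and 101 had none. The median difference within a gene was 0.0288, 0.0549, 0.0336, 0.0262 and 0.0173 at 7.5, 15, 30, 45 and 60 min. The very short introns were ahead in 634, 688, 649, 622 and 608 of the 1040 genes at these times, that is in 58.5% to 66.2%. The quartiles of the difference, -0.0419 and 0.0702 at 60 min, lay on both sides of 0. When each very short intron was set only against introns of the same gene in the same quintile of GC content, 854 genes remained, and the differences were 0.0245 at 7.5 min, 0.0504 at 15 min and 0.0181 at 60 min.

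The hosts with most very short introns show how far this varies between genes. FASN, the fatty acid synthase, had 21 very short introns among its 37 in the table, PRPF8, a core spliceosome protein, 16 of 41, and DYNC1H1, the heavy chain of cytoplasmic dynein, 15 of 52. In FASN the very short introns had a median of 0.824 at 60 min (lowest 0.573, highest 0.923), against 0.751 for its other introns. In PRPF8 the median was 0.940 at 60 min (0.790 to 0.978), against 0.909 for the others. DYNC1H1 went the other way, with 0.890 for its very short introns (0.822 to 0.964) and 0.937 for its others. TRIM28, a transcriptional corepressor with 12 of 15 introns very short, had the widest gap of these hosts, 0.849 at 60 min for the very short introns and 0.631 for the other 3. ANKRD36 (14 of 32) had medians of 0.900 and 0.868, and SUPT5H, the elongation factor SPT5 (10 of 22), of 0.899 and 0.860, each with the very short introns given first. ANKRD36 belongs to a family of near-identical copies, so its reads may be shared among them.

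Excision varied little along the range of lengths below 150 nt, except at its short end. The 134 very short introns of 70 to 79 nt had a median of 0.768 at 60 min, while bins of 10 nt from 80 to 149 nt had medians between 0.833 and 0.877. At 7.5 min the 70 to 79 nt introns had a median of 0.598, just under the bins from 80 to 149 nt (0.601 to 0.642), and their median GC content was 60.7%. No step was seen at the limit itself: the 313 introns of 150 to 174 nt had medians of 0.620 at 7.5 min and 0.841 at 60 min, beside 0.606 and 0.844 for those of 140 to 149 nt. Toward longer introns the 7.5 min median fell off, to 0.506 for introns of 3000 to 9999 nt, and was 0.532 for those of 10000 nt and over. Among the members just inside the limit, at 149 nt, introns of HNRNPH1, BCLAF1, PCM1 and ATXN2L had excised shares of 0.361, 0.372, 0.823 and 0.459 at 7.5 min. Just outside, at 150 nt, introns of RPL12, GPI, SNRNP70 and HDGF had 0.905, 0.871, 0.755 and 0.599.

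**Figure D2:**
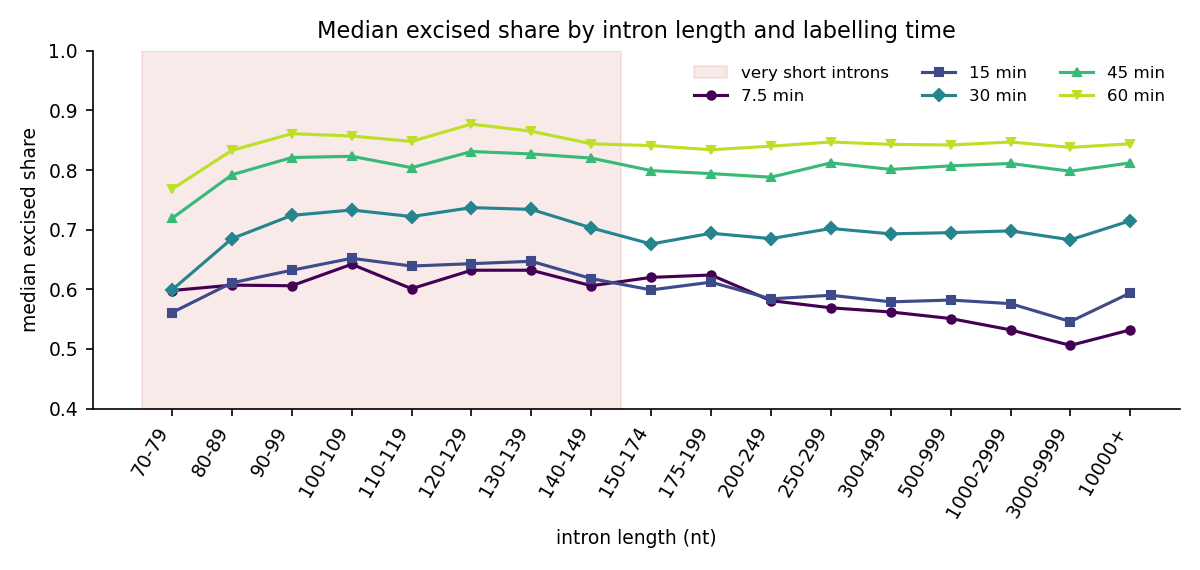
Median excised share (fraction, axis from 0.4) by intron length in nt, 1 line per labelling time, with the very short introns shaded; bins with fewer than 20 introns are not drawn. The 70 to 79 nt bin is lowest among the shaded bins at 60 min (0.768), and the 7.5 min line is lowest at 3000 to 9999 nt (0.506).

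Very short introns of low and of high GC content had different time courses. Their GC content had quartiles of 32.1% and 62.0% around a median of 49.2%, against 37.0% and 47.0% around 41.2% for the other introns. The 817 very short introns with GC below 40% had median excised shares of 0.544, 0.626, 0.755, 0.837 and 0.874 over the 5 times, a steady climb. The 623 with GC of 60% or more had 0.706, 0.648, 0.681, 0.781 and 0.829: they were furthest excised at 7.5 min, lower at 15 min, and behind the AT-rich kind from 30 min on. The other introns of the same GC showed the same shapes, with 0.513 and 0.865 (7.5 and 60 min) below 40% GC and 0.679 and 0.794 at 60% or more. Over very short introns, Spearman's rho of the excised share with GC was 0.34 at 7.5 min and -0.17 at 60 min (n = 2124; introns of a gene share libraries and host). With distance to the transcription start site rho was -0.22 and 0.29. That distance had a median of 20331 nt below 40% GC and 6071 nt at 60% or more, so the courses cannot be credited to GC alone.

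The excised share was lower at 15 than at 7.5 min for 1000 very short introns (47.1%) and 7447 other introns (37.9%). Inside ranges of GC these shares were alike: 25.9% and 26.1% below 40% GC, 40.8% and 39.4% from 40 to 50%, 61.4% and 61.8% from 50 to 60%, and 67.7% and 67.8% at 60% or more, with very short introns first in each pair. In the quintile of highest GC (above 50.2%, 1026 very short introns) the difference of medians was 0.0715 at 7.5 min and 0.0307 at 60 min. In the quintile of lowest GC (up to 35.7%, 670 very short introns) it was 0.0400 at 7.5 min and 0.00320 at 60 min, and in the middle quintile 0.0522 and -0.0219. The lead was nearly absent in the quintile from 35.7 to 39.5% GC (139 very short introns), with 0.00811 at 7.5 min and -0.00980 at 15 min. Of the 25 combinations of GC quintile and time, very short introns had the higher median in 18.

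**Figure D3:**
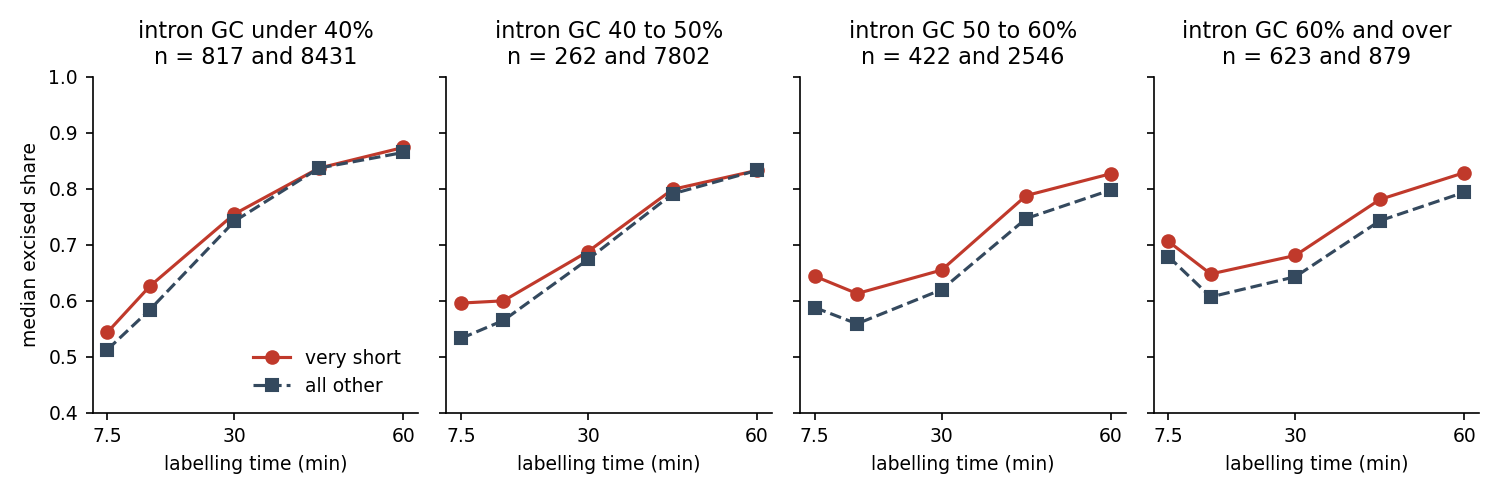
Median excised share (fraction, axis from 0.4) by labelling time in minutes for very short and all other introns in 4 ranges of intron GC content, with the number of very short and then other introns above each panel. Below 40% GC both lines climb throughout; at 60% or more both are lower at 15 than at 7.5 min and the very short introns end at 0.829, the others at 0.794.

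Splice site scores of very short introns were close to those of other introns. MaxEnt scores, which rate how well a splice site fits the sequence model of real sites, had medians of 8.68 in very short introns and 8.76 in the others at the 5′ splice site, and of 8.76 and 8.72 at the 3′ splice site. The branch point score was 1.06 in very short introns and 0.685 in the others, and the polypyrimidine tract score 27.0 and 28.0. Within each quintile of the 5′ score the difference of medians at 7.5 min lay between 0.0670 and 0.0875. Within quintiles of the 3′ score it lay between 0.0676 and 0.106. For both scores very short introns had the higher median in 22 of 25 combinations of quintile and time. Among very short introns, rho of the excised share at 60 min with the 5′ and 3′ scores was 0.07 and 0.04 (n = 2124).

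Very short introns also lay fewer nt from both ends of their genes, which were shorter. At a given distance their lead held to the end of the course, but it was small there in the farthest quintile. The median distance to the transcription start site was 10402 nt for very short introns and 18817 nt for the others, and that to the polyadenylation site 10765 and 24249 nt. Other introns near the gene's end were excised less far: in the quintile nearest to the polyadenylation site their median at 60 min was 0.782, against 0.883 in the farthest. In the nearest quintile the 932 very short introns had a median of 0.819 at 60 min. In the farthest quintile the difference of medians at 60 min was 0.00710, and 0.00360 in that farthest from the start site. In all 25 combinations of time and quintile of distance to the polyadenylation site, and likewise to the start site, very short introns had the higher median. These distances were chosen for a comparison after the values were seen.

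Very short introns were a larger share of the introns of abundant mRNAs. They were 14.3% of introns in the quintile of highest mature TPM in total RNA (109 TPM and over) and 5.78% in the lowest (up to 21.9 TPM). In the highest quintile their median was 0.683 at 7.5 min and 0.854 at 60 min, against 0.590 and 0.824 for other introns. In the lowest quintile it was 0.601 and 0.863, against 0.550 and 0.850. Very short introns had the higher median in 20 of 25 combinations of quintile and time.

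For 243 very short introns (11.4%), in 169 genes, the excised share was lower at 60 than at 7.5 min, as it was for 943 other introns (4.80%). Their median course was 0.782, 0.635, 0.562, 0.613 and 0.679 over the 5 times, lowest at 30 min. Their hosts' mature RNA had a median of 98.2 TPM in total RNA, against 61.0 TPM for the remaining 1881 very short introns. In labelled RNA the order was the other way, with 74.0 TPM against 88.2 TPM. Their median GC was 62.9%, against 45.6%. The authors' degradation rate of the host (unit not stated) had a median of 0.00100 for these introns and 0.00232 for the remaining ones. Ribosomal protein genes held 24 of the 243, against 15 of the remaining 1881. The share of very short introns that were lower at 60 min was 18.3% in the quintile of highest total TPM and 4.76% in the lowest, against 13.6% and 1.61% of other introns. The part of host abundance in these courses was not tested.

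Very short introns that are retained in an annotated transcript were excised less far from 15 min on. The 374 that lie inside an annotated exon of another transcript, 305 of them in transcripts typed as retained introns, had a median excised share of 0.751 at 60 min (quartiles 0.609 and 0.854). The 1677 matched introns that do not had 0.861 (0.787 and 0.913). At 7.5 min the 2 kinds were alike, with 0.611 and 0.613, and they separated at 15 min, with 0.538 and 0.640. The slow cluster held 41.4% of the first kind and 10.3% of the second. The introns inside an exon had a median GC of 55.1%, against 47.0%. Other introns of 150 to 1000 nt showed the same split at 60 min, 0.709 for 691 inside an exon and 0.852 for 5805 not. The triplet GGG, the core of the sites bound by hnRNP H and F proteins and searched on the transcribed strand, occurred in 277 of the 374 very short introns with a sequence (74.1%). It was found in 103 of 129 in the fast cluster (79.8%, median GC 60.4%), 60 of 90 in the medium cluster (66.7%, 48.5%) and 114 of 155 in the slow cluster (73.5%, 54.3%). Among other introns of 150 to 1000 nt, too, only those inside an annotated exon had a sequence. These 690 held the triplet more often, in 94.1%, but they are longer: per 100 nt the median was 2.73 in the very short introns and 2.09 in those.

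**Figure D4:**
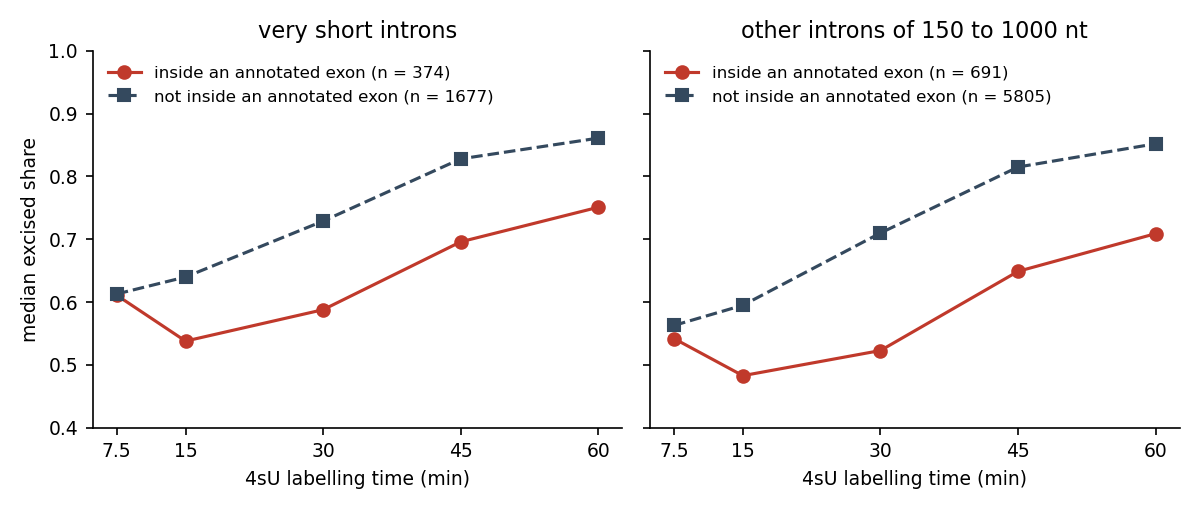
Median excised share (fraction, axis from 0.4) by labelling time in minutes for introns that lie inside an annotated exon of another transcript and for those that do not; left, very short introns, right, other introns of 150 to 1000 nt. In both panels the lines start close together at 7.5 min and the introns inside an exon are lower from 15 min on, ending at 0.751 against 0.861 for very short introns.

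The least excised very short introns fall into those with a 5′ splice site score below 0 and those with a score above 0. An intron of 63 nt in RPL8, a protein of the large ribosomal subunit, had excised shares between 0.0935 and 0.121 at the 5 times, with a 5′ splice site score of -18.4. An entry of 19 nt in NPIPB3, from a family of near-identical copies, had 0.10 to 0.129, with scores of -2.43 and -15.6 at its 5′ and 3′ sites. An intron of 93 nt in CCT6A, a subunit of the cytosolic chaperonin, had 0.131 to 0.190, with scores of -9.29 and -1.91. In all, 13 very short introns (0.612%) had a 5′ score below 0, as had 119 other introns (0.605%). These 13 include all 4 entries under 30 nt. The longer introns among the 13 had excised shares between 0.105 (RPL8) and 0.861 (HELLS) at 60 min. The entries of 1 nt in SENP3 and DCAF7 are the shortest of all, with listed shares of 0.982 and 1.00 at 60 min and scores below 0 at both ends. An entry of 1 nt cannot hold 2 splice sites. The 4 entries under 30 nt were set apart as possible artifacts, and their values are not read as excision. Leaving them out gave the same medians at 7.5 and 60 min, 0.613 and 0.847.

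The other low introns, printed above, had a 5′ score above 0. The 118 and 126 nt introns of DMKN, which encodes the secreted epidermal protein dermokine, had 0.302 and 0.319 at 7.5 min and 0.211 and 0.224 at 60 min. The 85 nt intron of SARS2, the mitochondrial seryl-tRNA synthetase, had 0.386, 0.322, 0.152, 0.225 and 0.212 over the 5 times. The 91 nt intron of TMEM106C had 0.438, 0.317, 0.247, 0.192 and 0.225. The 78 nt intron of SNHG5, a snoRNA host gene, had 0.325, 0.216, 0.208, 0.214 and 0.233 with a GC of 29.5%. These introns had lower values at 60 than at 7.5 min, where the median of all very short introns was higher at 60 min. They were picked for a low value at 60 min, so this contrast is partly set by the choice. A shared splice site, as in DMKN, was rare: 55 very short introns (2.59%) shared one with another intron of the table, against 6.92% of the others, and those 55 had a median of 0.778 at 60 min. Introns of the authors' alternative exon class were 2.26% of very short introns and 5.88% of the others.

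At 7.5 min the order was different. The 74 nt intron of KRI1, a ribosome biogenesis factor, was listed at 1.00, and a 107 nt intron of SPTAN1, the alpha II spectrin, at 0.976. A 147 nt and a 133 nt intron of GPX4, the glutathione peroxidase that protects lipids, had 0.974 and 0.971. The lowest with a 5′ score above 0 were in SLC38A2, a neutral amino acid transporter. Its 112 nt intron, with a score of 10.5 at the 5′ and 10.4 at the 3′ site, had 0.0749, 0.343, 0.613, 0.739 and 0.740 over the 5 times, and its 148 nt intron 0.108, 0.189, 0.430, 0.600 and 0.650. A 105 nt intron of SNHG17, another snoRNA host gene, had 0.132 at 7.5 min and 0.521 at 60 min.

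For the 12 hosts with the highest mean mature TPM over the 15 labelled libraries, the shortest very short intron of each was named. Of these 12 introns, 9 were lower at 15 min and higher at 60 min than at 7.5 min, 2 were lower at both and 1 was higher at both. In RPS2, a protein of the small ribosomal subunit, the 79 nt intron had 0.926, 0.774, 0.654, 0.697 and 0.769 over the 5 times. The 95 nt intron of RPS16, of the same subunit, had 0.871, 0.730, 0.662, 0.727 and 0.748. These are the 2 of the 12 that were lower at 60 than at 7.5 min, and both were lowest at 30 min. Other very short introns of RPS16 differed: that of 103 nt had 0.880 at 7.5 min and 0.783 at 60 min, and that of 139 nt 0.938 and 0.954. In HSPA8, the constitutive HSP70 chaperone, the 87 nt intron had 0.457, 0.529, 0.712, 0.815 and 0.852, higher at each time than at the one before. HNRNPA1 (86 nt) had 0.842 at 60 min and 0.537 at 7.5 min, EEF1A1 (83 nt), the elongation factor that brings aminoacyl-tRNA to the ribosome, 0.869 and 0.655, and TUBA1B (109 nt) 0.952 and 0.836. The introns of RPS2 and RPS16 had GC contents of 70.9% and 57.9%, but GC-rich introns were also found among those that ended higher: TUBA1B with 57.8%, GAPDH (90 nt, 0.878 at 60 min and 0.821 at 7.5 min) with 61.1% and EIF4A1 (81 nt, 0.893 and 0.771) with 60.5%. Those of HSPA8 and HNRNPA1 had 29.9% and 30.2%. Ribosomal protein genes have many processed pseudogenes, so their exon reads can be shared with copies.

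Gene families differed in how often they carry a very short intron and in its course. Of the ribosomal protein genes in the table, 32 of 66 (48.5%) had one, and the 39 introns had medians of 0.827 at 7.5 min and 0.797 at 60 min, against 0.742 and 0.766 for other introns of these genes. Glycolytic enzymes (4 of 12 genes, 14 introns) began at 0.831 and ended at 0.859. GAPDH alone had 5 very short introns, with 0.821 to 0.904 at 7.5 min and 0.854 to 0.920 at 60 min. Of translation factor genes 30 of 50 (60.0%) carried 63 very short introns, with 0.718 at 7.5 min and 0.875 at 60 min. All 5 of EEF1A1 lay between 0.869 and 0.933 at 60 min.

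Families that act in splicing, zinc finger genes and cell cycle genes had the lowest medians at 7.5 min. The hnRNP genes, whose proteins bind nascent RNA, carried very short introns most often of the 14 lists counted, 15 of 17 genes (88.2%) with 34 introns, at a median of 0.514 at 7.5 min and 0.816 at 60 min. The other introns of these genes were also low at 7.5 min, with a median of 0.483. In HNRNPH1 the 56 nt intron had 0.428, 0.296, 0.440, 0.578 and 0.630 over the 5 times, and a 92 nt intron ended at 0.473. SR proteins and CLK kinases, which promote splice site choice and regulate it by phosphorylation, had 5 of 13 genes with 8 introns, at 0.394 and 0.808, and a median of 0.349 at 7.5 min for their other introns. The 2 introns of SRSF6 began at 0.140 and 0.204 and ended at 0.798 and 0.816. Genes with ZNF symbols, which are mostly zinc finger transcription factors, had a very short intron in 5 of 69 (7.25%), with medians of 0.399 at 7.5 min and 0.835 at 60 min over 6 introns. The medians of all very short introns were 0.613 at 7.5 min and 0.847 at 60 min.

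Among the other lists, medians at 60 min ran between 0.770 and 0.879. Aminoacyl-tRNA synthetases had very short introns in 10 of 18 genes (median 0.660 at 7.5 min and 0.843 at 60 min), proteasome subunits in 15 of 29 (0.689 and 0.814), and RNA polymerase subunits in 9 of 22 (0.704 and 0.879). POLR2A, the largest subunit of RNA polymerase II, had 9, from 0.762 to 0.969 at 60 min. Cyclins and cell cycle kinases had them in 11 of 20 genes (0.469 and 0.794), with 8 in CDK16 that ran from 0.573 to 0.864 at 60 min. Mitochondrial ribosomal proteins had them in 11 of 44 (0.731 and 0.828), respiratory chain subunits in 13 of 50 (0.694 and 0.788), tubulins in 5 of 10 (0.671 and 0.770) and vacuolar ATPase subunits in 2 of 7 (0.792 and 0.860).

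Some very short introns are also microRNA precursors. A mirtron is an intron whose whole length folds into a hairpin, so that splicing takes the place of the first cut in microRNA processing. The authors labelled 27 very short introns as hosts of a microRNA, with medians of 0.713 at 7.5 min and 0.865 at 60 min, against 0.594 and 0.775 for 57 other introns with that label. Of the 24 with a match in GENCODE 29, 13 overlap a RefSeq (GRCh38.p14) hairpin on the same strand, as does 1 more without the label, in TUFM. In 5 the hairpin covers at least 80% of the intron: those of LMNB2 (87 nt, MIR7108), TRIM28 (92 nt, MIR6807), PIM3 (74 nt, MIR6821), ARF1 (79 nt, MIR3620) and KHSRP (82 nt, MIR3940). Their median was 0.611 at 7.5 min and 0.860 at 60 min. In 8 of the 14 introns a mature microRNA ends at the last base of the intron, and in 4 one starts at its first base. The mature sequences of the TRIM28 and LMNB2 introns, which have both, are shown with the seed (bases 2 to 8) in capitals. The 5p forms start with the intron's gu, and the 3p forms end with its ag.
hsa-miR-6807-5p: gUGAGCCAguggaauggagagg
hsa-miR-6807-3p: cACUGCAUuccugcuuggcccag
hsa-miR-7108-5p: gUGUGGCCggcaggcgggugg
hsa-miR-7108-3p: aCCCGCCCgucuccccacag
The TRIM28 intron had excised shares of 0.572, 0.438, 0.543, 0.745 and 0.783 over the 5 times, and the LMNB2 intron, with 83.9% GC, had 0.830, 0.821, 0.899, 0.941 and 0.965. The seeds differ, as do the courses of the introns.

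TPM values of each library allow a test at the level of the host gene. The authors estimated a primary transcript, spanning the whole locus, and the mature RNA of each gene, so the primary share of TPM reflects all introns of a gene. The median primary share over the 1141 host genes was 28.4 ± 1.45%, 27.7 ± 2.36%, 20.7 ± 2.28%, 13.1 ± 2.11% and 10.5 ± 1.64% at 7.5, 15, 30, 45 and 60 min (SD, n = 3 libraries each) and 1.25 ± 0.277% in total RNA. Over the 3019 tested genes of the table without a very short intron it was 35.4 ± 0.872%, 32.9 ± 2.99%, 23.6 ± 2.05%, 15.0 ± 3.34% and 11.7 ± 2.85%, and 1.88 ± 0.467% in total RNA. The 3 total RNA libraries were made in 3 ways, so their SD is not a spread of replicates. At 7.5 min the host genes had 29.9, 27.0 and 28.3% in libraries A, B and C, against 36.4, 34.8 and 35.0% for the genes without, so the ranges did not overlap. At 60 min they had 8.64, 11 and 11.8%, against 8.54, 12.7 and 14.0%, and the ranges overlapped.

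In 275 host genes very short introns were no fewer than the gene's other introns in the table, and the course of these was flatter. Their median primary share was 27.8 ± 1.78% at 7.5 min and 30.0 ± 2.32% at 15 min, and 13.7 ± 1.66% at 60 min (SD, n = 3). In all 3 libraries at 60 min it was above that of all host genes, at 12, 13.9 and 15.3%.

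**Figure D5:**
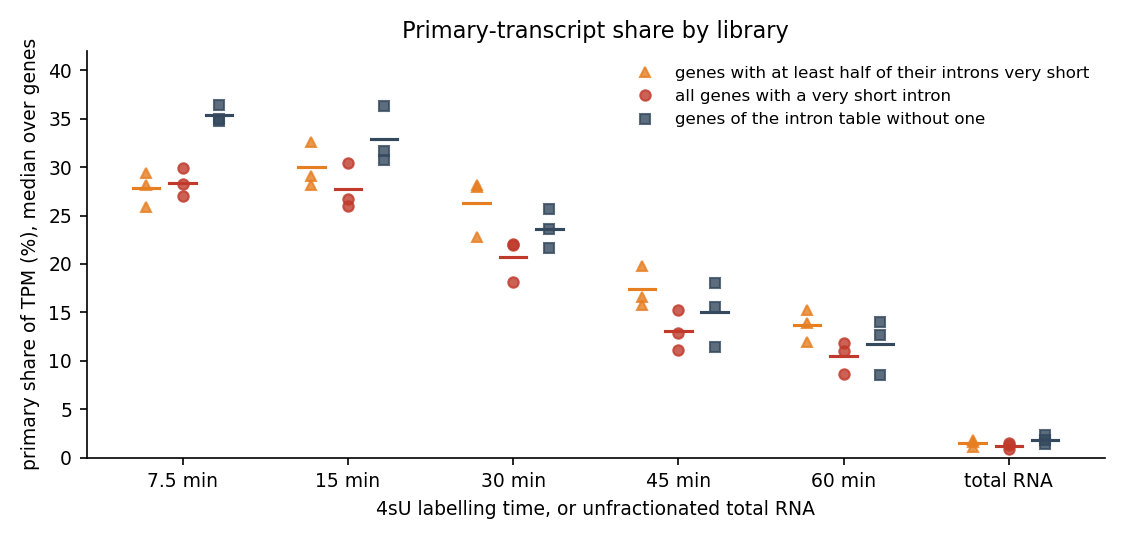
Primary transcript share of TPM (percent, median over genes) by labelling time and in total RNA; each point is 1 library and each bar the mean of 3. At 7.5 min genes with a very short intron (27.0 to 29.9%) lie below genes of the table without one (34.8 to 36.4%), and from 15 min on, in each library, the genes whose very short introns are no fewer than their others lie above all host genes.

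The ratio of primary to mature RNA fell between 7.5 and 60 min in most host genes. With limma over the 15 labelled libraries and Benjamini-Hochberg adjustment at 0.05, 909 of 1141 host genes (79.7%) had a lower ratio at 60 min and 37 (3.24%) a higher one. Among all 13879 genes tested, 62.8% were lower and 1.09% higher. Of the 3019 genes of the table without a very short intron, 86.1% were lower and 1.16% higher, and of the 275 such host genes with no fewer very short than other introns 59.3% and 6.55%. The median log2 change was -1.79 in host genes, -1.22 in those 275, -2.05 in the table's other genes and -1.81 over all genes. These differences between gene groups were not tested. Scaling each library to the same median removes the shift common to all genes: median-ratio scaling moved the median over all genes to -0.05 and gave 222 host genes lower and 258 higher, and quantile normalization gave 275 and 218.

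The 4 host genes with the largest rise of the ratio were KRTCAP2, a subunit of the oligosaccharyltransferase, METTL26, RPLP2, of the ribosomal stalk, and GPX4. KRTCAP2 had mature RNA at 30.1, 34.4 and 53.4 TPM at 60 min (A, B and C), against 150, 140 and 192 TPM at 7.5 min. Its primary RNA was 16.0, 14.4 and 16.2 TPM at 60 min, against 9.56, 10.8 and 7.25 TPM at 7.5 min, so the groups did not overlap in either. The log2 change of its ratio was 2.83 (SE 0.43, limma adjusted p = 0.000115). Its 109 nt intron is 1 of the 13 with a 5′ score below 0, and had an excised share of 0.449 at 60 min and 0.828 at 7.5 min. RPLP2 had mature RNA at 140, 128 and 144 TPM at 60 min, against 651, 528 and 879 TPM at 7.5 min. Its primary RNA overlapped between the times, with means of 24.7 TPM at 60 min and 27 TPM at 7.5 min. Its ratio rose by 2.18 on the log2 scale (SE 0.24, limma adjusted p = 1.41e-05). METTL26 and GPX4 rose by 2.46 and 2.06.

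The largest falls of the ratio were in ADAMTS1, a secreted metalloprotease, GATA6, a transcription factor, CDC25A, a phosphatase that drives the cell cycle, and USP6NL, a GTPase activator. ADAMTS1 had 41.7, 36.8 and 43.4 TPM primary RNA at 60 min, against 335, 231 and 243 TPM at 7.5 min, and mature RNA at 395, 352 and 368 TPM, against 83.8, 79.3 and 93.0 TPM. Neither kind overlapped between the times, and the ratio fell by 4.83 on the log2 scale (SE 0.23, limma adjusted p = 4.44e-07). GATA6, CDC25A and USP6NL had log2 changes of -4.32, -4.08 and -3.94. Median-ratio scaling kept the calls of the 8 genes named for the ratio but moved their sizes, to -3.0 for ADAMTS1, -2.48 for GATA6, -2.26 for CDC25A and -2.14 for USP6NL, and to 4.65 for KRTCAP2, 4.28 for METTL26, 4.01 for RPLP2 and 3.84 for GPX4.

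Mature TPM were higher at 60 than at 7.5 min in 292 host genes (25.6%) and lower in 86 (7.54%), against 15.8% and 4.21% of all 16739 genes tested (limma, same threshold). Over the table's genes without a very short intron it was 21.2% and 6.76%. With median-ratio scaling the host genes split into 120 higher and 144 lower, and with quantile normalization into 173 and 113. SNHG1, a snoRNA host gene, rose most, with 471, 351 and 359 TPM at 60 min, against 63.1, 49.1 and 49.0 TPM at 7.5 min, 2.85 on the log2 scale with an SE of 0.21 (limma adjusted p = 2.96e-06). MIDN, MAT2A, which makes S-adenosylmethionine, and CDC25A rose by 2.46, 2.45 and 2.34. RPS21 fell most, with 88.2, 108 and 88.7 TPM at 60 min, against 548, 478 and 820 TPM at 7.5 min, -2.65 on the log2 scale with an SE of 0.24 (limma adjusted p = 7.63e-06). RPLP2, RPL34 and OST4 had changes of -2.28, -2.18 and -2.13. Among the hosts of the introns shown above, RPS2 fell by 1.62 (limma adjusted p = 0.00313) and HSPA8 rose by 0.64 (limma adjusted p = 0.0266), while EEF1A1 changed by -0.07 (limma adjusted p = 0.83).

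The authors' gene-level scores, centred per the deposited description, set host genes beside the other genes of the intron table. The median synthesis score was 0.682 for the 1141 host genes and 0.524 for the other 3022, and the degradation score -0.242 and -0.133. The processing score, whose log base is not stated, was 0.294 in host genes and 0.213 in the others, and the score of cytoplasmic over nuclear RNA 0.0103 and 0.0288. Of the host genes 62.7% were in the authors' gene cluster c1, against 35.0% of the table's other genes.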

How the data were processed

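Excision of each intron was deposited by the authors as a fraction, from bam2ssj counts of spliced and unspliced reads, averaged over 3 libraries per time, per the file headers. For these reads the aligner is not given in the sources used. GC content is also deposited as a fraction, lengths and distances as log10 nt, and splice site, branch point and gene-level values as a score, per the file headers. The authors deposited TPM of primary and mature RNA for 18 libraries, made with Bowtie 1.0.1 and RSEM 1.2.11 on hg19, per the submitters' processing notes. Neither kind holds read depth.

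Lengths were rounded to whole nt before the limit of 150 nt was applied. Medians, quartiles and counts were computed in Python 3.11.15. Host gene TPM were tested with limma 3.58.1 (R 4.3.3, empirical Bayes with trend) over the 15 labelled libraries with time as a factor, on log2((primary + 0.1)/(mature + 0.1)) for genes averaging 1 TPM or more of mature and 0.1 TPM or more of primary RNA, and on log2(mature + 1) for genes with a mean of at least 1 TPM, adjusted over all genes tested. All 1141 host genes passed both filters. A log2 change on these scales understates that of low genes. Sequences came from GENCODE 29 transcripts by gene, intron length and flanking exon lengths, and no coordinates were moved between builds. Gene symbols matched 1133 of 1141 host genes.

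Introns were named as the shortest in each of the 12 hosts with the highest mean mature TPM in labelled RNA. Also named were the 5 highest and 5 lowest at 7.5 min and the 8 lowest at 60 min. The 4 shortest, 4 on each side of the limit, and the 6 hosts with most very short introns were added. Host genes were named as the 4 largest calls per direction that held in each replicate, and up to 4 genes were named per list. The 56 nt HNRNPH1 intron, the KRTCAP2 intron, the microRNA introns shown and list introns beyond the rule were chosen after their values were seen. The rule, the members and the gene lists were chosen with earlier results of these data known. Left out were the table of copies per cell and the exon inclusion levels.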

Additional observations from a re-analysis of the deposited data

How the results depend on the processing

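The excised shares are deposited as means of libraries, so leaving out a library could be tried only for TPM. The lead of very short introns over others at 7.5 and 15 min kept its direction under every alternative run, and that at 30 to 60 min did not. With a limit of 100 nt the difference of medians was 0.0398 at 15 min and -0.00720, -0.0103 and -0.00644 at 30, 45 and 60 min, and with 120 nt -0.00269 and -0.000343 at 45 and 60 min. Against other introns of host genes alone it was -0.00154 and -0.000871 at 45 and 60 min, and against introns of 150 to 1000 nt 0.0516 and 0.0459 at 7.5 and 15 min. With each gene counted once it was 0.0590, 0.0282, 0.0151 and 0.0156 at 7.5, 30, 45 and 60 min. Without introns inside an annotated exon, an alternative chosen after seeing the data, it was 0.0293, 0.0176 and 0.0151 at 30, 45 and 60 min. Such introns were looked for only up to 1000 nt, so all longer other introns were kept. Both sides were therefore not filtered alike. The cause of these shifts was not tested.

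Within genes the difference kept its sign throughout: it was 0.0163, 0.0390 and 0.0225 at 7.5, 15 and 30 min with a limit of 100 nt, and 0.0428, 0.0358 and 0.0247 at 30, 45 and 60 min with means in place of medians. With a limit of 100 nt very short introns led in 52.0% of combinations of time and 5′ score quintile.

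For the ratio of host genes, median-ratio scaling gave 19.5% lower and 22.6% higher, quantile normalization 24.1% and 19.1%, and the 275 genes with no fewer very short than other introns 6.55% higher. For mature TPM, median-ratio scaling gave 10.5% higher and 12.6% lower, and quantile normalization 15.2% higher. Leaving out 1 library at a time gave 75 to 78.6% lower and 2.45 to 3.24% higher for the ratio, and 17.9 to 21.1% higher and 5.35 to 7.54% lower for mature TPM. The labels do not tell whether a replicate letter pairs samples across times, and the main fit left the letters out. Same-letter correlations were weak and positive, 0.14, 0.08 and 0.05 for the ratio and 0.27, 0.08 and 0.09 for mature TPM. With the replicate block the ratio was lower in 928 and higher in 41 host genes. Mature TPM were then higher in 437 and lower in 135 (11.8%), against 292 and 86 without the block.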
